A study of Mus musculus with 24 samples.

Results

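The genes described here encode the fibrous and sheet-forming proteins of the extracellular matrix: the collagens, the laminins and fibronectin. They were chosen by symbol alone, as the protein-coding genes named Col, a number, a and a number, those named Lam, a, b or c and a number, and Fn1. The rule found 56 of 54446 gene IDs (44 collagen chains, 11 laminin chains and Fn1), among 21918 protein-coding IDs. Of the 56 genes, 42 reached the mean FPKM of 0.5 over all libraries that was required for testing (32 collagens, 9 laminins and Fn1). FPKM is the number of sequenced fragments of a gene scaled to its length and to the size of the library. Polyadenylated RNA was sequenced in bulk from the mouse corpus callosum, the white matter tract between the cerebral hemispheres. Mice labelled naive received vehicle (n = 4) or an inhibitor of Bruton's tyrosine kinase, BTKi (n = 4), and mice of the cuprizone model of demyelination received vehicle (n = 8) or BTKi (n = 8). Cuprizone is a copper chelator that kills oligodendrocytes, and BTK is a signalling kinase found in B cells, microglia and other myeloid cells. The sources used here do not give strain, age, compound, dose or treatment times, beyond the statement that the inhibitor followed disease induction. No label ties a library to an animal of its own, so the p-values measure the spread among these samples, part of which may be technical.

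Collagens are built from alpha chains that wind into triple helices. Fibrillar collagens form cables, fibril-associated collagens sit on their surface, and collagen IV forms the network of basement membranes. Laminins are heterotrimers of an alpha, a beta and a gamma chain that nucleate basement membranes, and fibronectin is a large dimeric glycoprotein that cells assemble into fibrils through integrins. Healthy brain parenchyma holds little fibrillar collagen, and most of its matrix of this kind lies in the basement membranes of vessels and of the glial limiting layer, in the meninges and in the choroid plexus. Laminin-211 and its receptors are known to act in oligodendrocyte maturation, and fibronectin deposited in demyelinated lesions is known to impair remyelination.

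Sequencing depth, read from the spacing of low FPKM values, was about 26500000 fragments in the library cuprizone BTKi 5, 29800000 in the next lowest and 31000000 in the deepest. Mature oligodendrocyte markers, the defining genes of the tract's main cell type, summed to 3391 to 4771 FPKM in naive vehicle, 2939 to 3008 in naive BTKi, 1081 to 1782 in cuprizone vehicle and 1211 to 2586 in cuprizone BTKi libraries, and all 10 of them fell with cuprizone under vehicle and under BTKi. Neuronal RNA was also present in every group. The 8 general neuron markers summed to 1995 to 2353 FPKM in naive vehicle and 2115 to 2356 in naive BTKi libraries. In cuprizone vehicle and cuprizone BTKi libraries they summed to 2125 to 2412 and 2001 to 2249. Choroid plexus and striatal RNA was present too, with a shift between the vehicle groups and libraries that stood apart. The 9 choroid plexus markers summed to 1161 to 1846 FPKM in naive vehicle and 31.3 to 1535 in cuprizone vehicle libraries. All 9 had a negative log2 change (median -1.27), and 1 passed the test. The 8 striatal neuron markers summed to 231 to 672 and 129 to 238, and all 8 fell (median -0.94). Under BTKi the medians were -0.24 and -0.33, and none passed. The part of this in the matrix genes was not tested. In cuprizone vehicle libraries 1, 4 and 7 the 9 choroid plexus markers summed to 124, 31.3 and 36.7 FPKM, against 759 to 1535 in the other 5. The library naive vehicle 2 held 672 FPKM of the 8 striatal neuron markers, against 231 to 384 in the other naive vehicle libraries, and the most mature oligodendrocyte RNA of all 24 libraries. Results that rest on these libraries are given with and without them below. The summed endothelial markers (108 to 122 FPKM in naive and 110 to 139 in cuprizone libraries), mural cell markers (46.9 to 56.7 and 49.5 to 62.0) and fibroblast and meningeal markers (364 to 648 and 342 to 546) overlapped between naive and cuprizone mice. Ptgds dominated the fibroblast and meningeal sum, with a mean of 393 FPKM in naive vehicle libraries, where Igf2 had 35.2. Of these 11 markers, 7 had a positive log2 change with cuprizone under vehicle (median 0.06), and all 11 had a negative one under BTKi (median -0.20). The medians over all genes tested were 0.03 and 0.02. In bulk tissue, fewer cells of a type and less RNA per cell cannot be told apart.

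The 56 genes together made up a small part of the RNA. Their summed FPKM was 143.6 ± 7.30 in naive vehicle, 136.8 ± 11.2 in naive BTKi, 142.9 ± 8.45 in cuprizone vehicle and 144.4 ± 9.69 in cuprizone BTKi mice (SD, n = 4, 4, 8 and 8), between 0.0267% and 0.0332% of a library's total. The groups overlapped in this sum. The highest levels over all 24 libraries belonged to Col6a1 (mean FPKM 12.1), a chain of beaded filament collagen VI, and to Fn1 (11.4). They were followed by the basement membrane chains Col4a2 (8.26) and Col4a1 (7.72), the fibril-associated Col9a3 (8.00), the laminin chains Lamb2 (7.98) and Lamc1 (6.20), the transmembrane Col25a1 (6.19), the fibril-associated Col16a1 (5.50) and the fibrillar Col5a1 (4.68). Each of the other 46 genes had a lower mean. The ratio of Col1a1 to Col1a2, the chains of collagen I, lay between 0.473 and 0.659 in all 24 libraries, and that of Col4a1 to Col4a2 between 0.829 and 1.04. The ratio of Col8a1 to Col8a2, the collagen VIII chains, ran from 0.725 to 1.21, and that of Col9a2 to Col9a3 of collagen IX from 0.108 to 0.562.

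**Figure D1:**
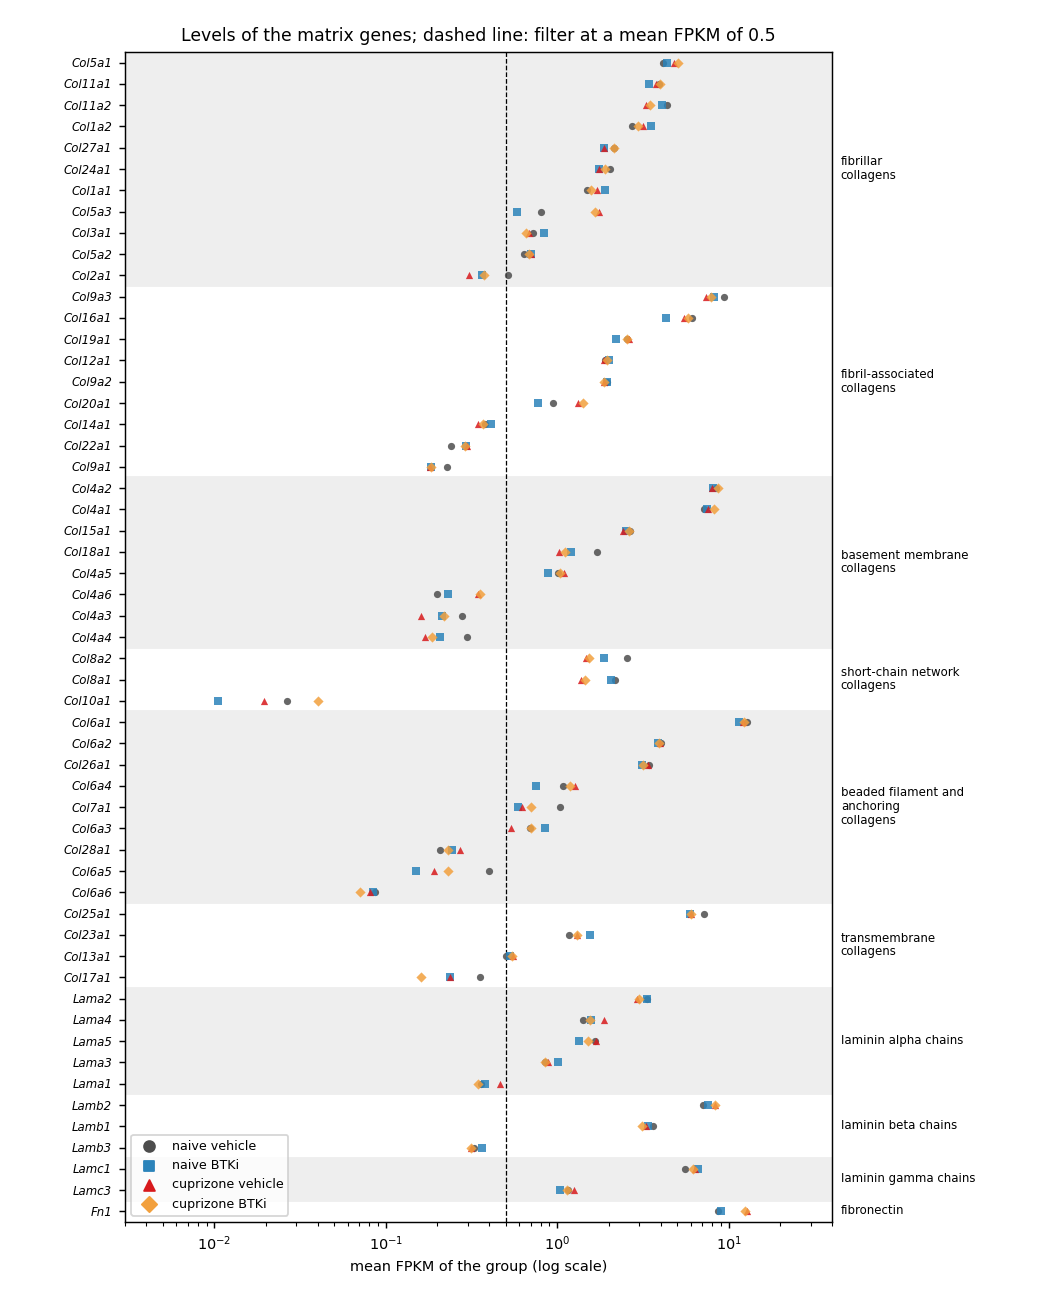
Mean FPKM of all but 1 of the 56 matrix genes in the 4 groups, on a log axis, ordered by structural role and by level within it; circles are naive vehicle, squares naive BTKi, triangles cuprizone vehicle and diamonds cuprizone BTKi, and the dashed line is the filter at a mean FPKM of 0.5. Col6a1 (12.1) and Fn1 (11.4) had the highest means over all libraries, and 14 genes lay below the filter.

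The effect of cuprizone was asked under vehicle and under BTKi with limma across 15216 genes, adjusted by Benjamini-Hochberg within each comparison at 0.05. Few matrix genes changed. Under vehicle, 3 of the 42 tested genes rose (Col5a3, Fn1 and Lama4) and 3 fell (Col11a2, Col18a1 and Col7a1), and 36 did not pass the test. Among all genes tested 15.0% passed in either direction, 10.2% upward and 4.82% downward, so the share of matrix genes that changed was near that of genes in general. Their median log2 change was -0.01, against 0.03 over all genes tested. Under BTKi, 3 of 42 rose (Col5a3, Col16a1 and Col20a1) and none fell, against 6.11% and 1.77% of all genes, 7.87% in either direction, with a median log2 change of 0.02 against 0.02. With an unadjusted p under 0.05 there were 6 genes up and 6 down under vehicle, and 5 up and 1 down under BTKi. The comparisons use different libraries, and whether a gene's cuprizone effect differed between vehicle and BTKi is the last comparison below.

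**Figure D2:**
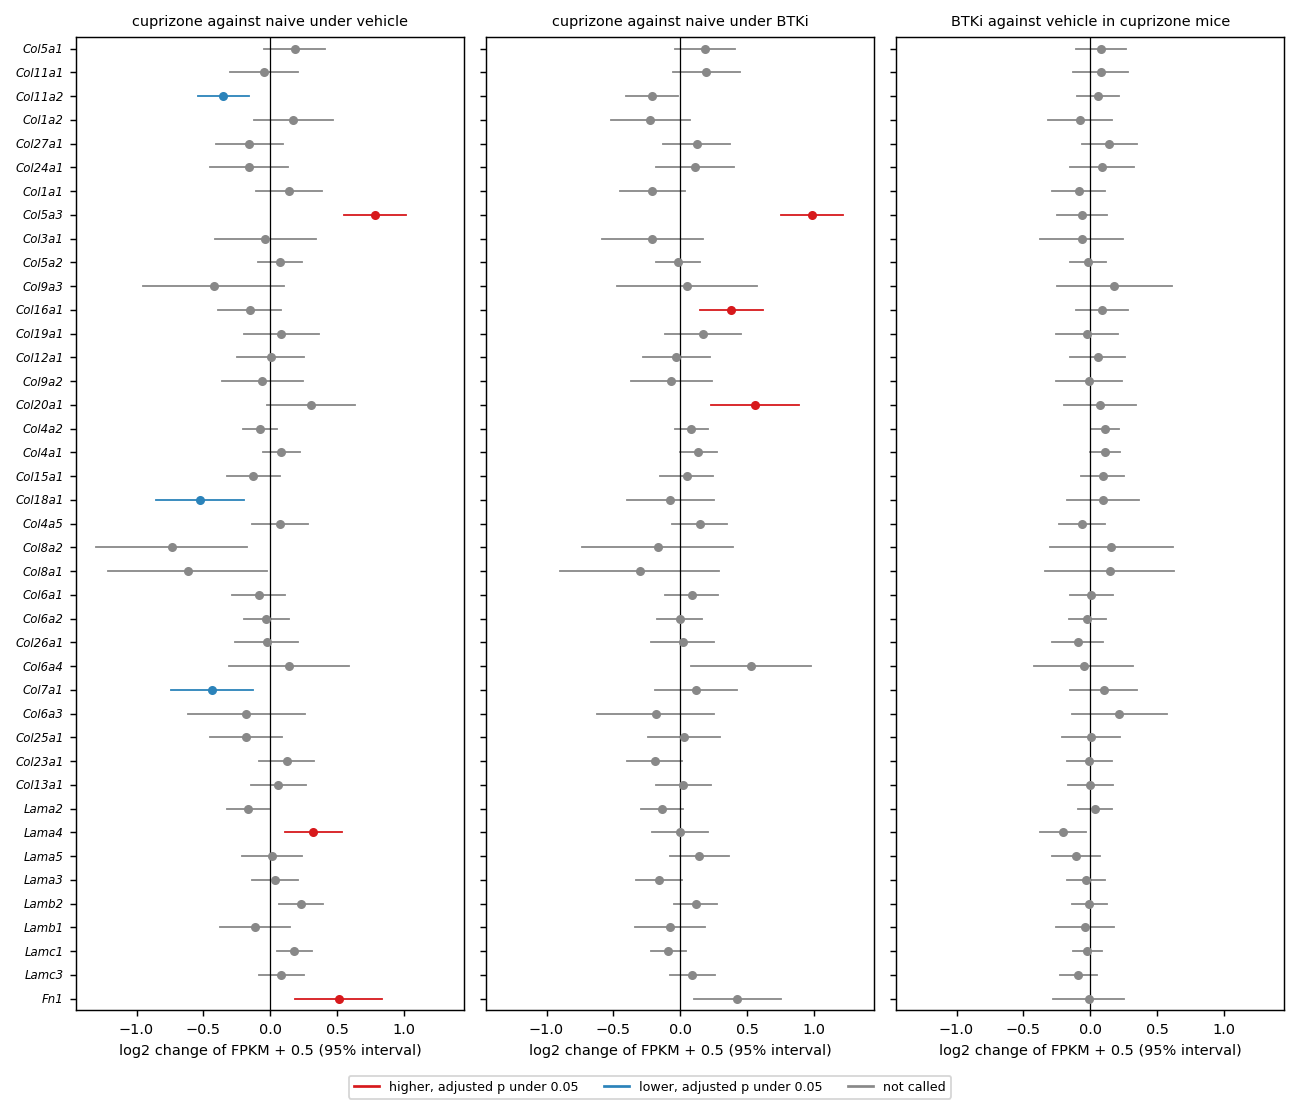
Log2 change with its 95% interval for all but 1 of the 42 tested genes in 3 comparisons, each fitted on log2(FPKM + 0.5) with all 4 groups in 1 model; red and blue mark genes with an adjusted p under 0.05. Col5a3 lies farthest to the right under vehicle (0.78) and under BTKi (0.98), and no gene is coloured in the panel for BTKi against vehicle.

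Among the fibrillar collagens, 10 of 11 chains were tested. Col5a3, which encodes the alpha 3 chain of collagen V, a minor fibrillar collagen that joins others in mixed fibrils, stood apart. Its level was 0.588, 1.02, 0.797 and 0.813 FPKM in the 4 naive vehicle libraries and 0.493, 0.610, 0.708 and 0.526 in the 4 naive BTKi libraries. In cuprizone vehicle libraries the lowest value was 1.34, the median 1.78 and the highest 2.10, and in cuprizone BTKi libraries they were 1.31, 1.64 and 2.27. Every cuprizone library was above every naive library, whatever the treatment. Within a single treatment, a separation upward was seen for 5.92% of all genes tested under vehicle and 5.70% under BTKi. The share of genes that separated across both treatments at once was not counted. The mean rose from 0.805 ± 0.177 to 1.75 ± 0.315 FPKM under vehicle (SD, n = 4 and 8), and the log2 change was 0.78 (limma adjusted p = 1.88e-05, SE 0.11). Under BTKi it rose from 0.584 ± 0.0962 to 1.65 ± 0.278 (log2 change 0.98, SE 0.11, adjusted p = 2.67e-06). An exact two-sided permutation test gave p = 0.00202 under each treatment, the smallest that 495 splits allow. The effect does not rest on the libraries that stood apart: without the 3 cuprizone vehicle libraries with little choroid plexus RNA the log2 change was 0.75 (adjusted p = 0.000127). These levels correspond to about 101 to 477 fragments of the gene per library. The other collagen V chains did not pass the test: Col5a1 had log2 changes of 0.18 and 0.18 and Col5a2 of 0.07 and -0.02 under vehicle and BTKi. The ratio of Col5a3 to Col5a1 was 0.202 ± 0.0714 in naive vehicle, 0.136 ± 0.0327 in naive BTKi, 0.374 ± 0.0794 in cuprizone vehicle and 0.333 ± 0.0733 in cuprizone BTKi mice.

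Col11a2, a chain of collagen XI, which is closely related to collagen V and nucleates fibrils, moved the other way. Its level was 3.65, 4.92, 5.06 and 3.86 FPKM in naive vehicle libraries and 4.08, 3.91, 3.84 and 4.42 in naive BTKi libraries. The lowest, median and highest values were 2.66, 3.41 and 3.55 in cuprizone vehicle and 2.81, 3.53 and 4.19 in cuprizone BTKi libraries. All 8 cuprizone vehicle libraries lay below all 4 naive vehicle libraries, as they did for 2.85% of all genes tested, while under BTKi the groups overlapped. The log2 change was -0.35 under vehicle (SE 0.09, limma adjusted p = 0.0104) and -0.21 under BTKi (adjusted p = 0.208). Without naive vehicle 3, one of the libraries with the highest values, the vehicle result no longer passed (adjusted p = 0.0623), and the same held without naive vehicle 2.

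The 2 fibrillar collagens that separated completely between naive and cuprizone vehicle mice, Col5a3 and Col11a2, are shown by the 250 bases before their RefSeq starts (GRCm38.p6), the stretch where basal promoter elements lie. Capitals mark GC boxes (GGGCGG, here read on the opposite strand) and the CCAAT box. The Col5a3 stretch is chr9:20815068-20815317 on the minus strand and the Col11a2 stretch chr17:34038888-34039137 on the plus strand.
Col5a3: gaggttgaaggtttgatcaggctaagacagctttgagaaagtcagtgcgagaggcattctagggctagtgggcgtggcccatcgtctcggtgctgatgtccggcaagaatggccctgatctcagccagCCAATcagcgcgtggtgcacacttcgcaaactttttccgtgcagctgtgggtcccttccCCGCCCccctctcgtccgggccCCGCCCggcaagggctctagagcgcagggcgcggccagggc
Col11a2: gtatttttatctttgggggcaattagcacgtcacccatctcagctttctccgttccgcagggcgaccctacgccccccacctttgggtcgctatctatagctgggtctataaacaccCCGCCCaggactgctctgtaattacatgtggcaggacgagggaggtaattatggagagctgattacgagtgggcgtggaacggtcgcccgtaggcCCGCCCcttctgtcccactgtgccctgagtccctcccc
Each stretch holds 2 GC boxes, at 63 and 41 bases before the start in Col5a3 and at 133 and 38 in Col11a2. The letters CCAAT stand 122 bases before the Col5a3 start, and the letters TATAAA 143 bases before the Col11a2 start. GGGCGG occurs on either strand in 32.7% of 32851 RefSeq promoter windows, CCAAT in 33.8% and TATAAA in 12.4%. Of 44 windows of 40 matrix genes that RefSeq lists, 54.5% hold GGGCGG, 31.8% CCAAT and 11.4% TATAAA. A match is a description of the letters, not of a binding site.

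The remaining fibrillar chains gave no call. Collagen I and III, the main fibril formers of meninges and vessel walls, were low and did not pass the test. Their SD of log2 values within groups was 0.199 for Col1a1, 0.249 for Col1a2 and 0.315 for Col3a1. Col1a1 was 1.17, 1.58, 1.58 and 1.65 FPKM in naive vehicle and 1.64, 2.28, 1.78 and 1.87 in naive BTKi libraries. In cuprizone vehicle libraries it ran from 1.24 over a median of 1.70 to 2.21, and in cuprizone BTKi libraries from 1.10 over 1.56 to 2.04. Naive and cuprizone libraries overlapped, with log2 changes of 0.14 under vehicle and -0.21 under BTKi (limma adjusted p = 0.482 and 0.368). Col1a2, its partner chain, had 0.17 and -0.22, and Col3a1, the chain of the homotrimeric collagen III, -0.04 and -0.21, none of which passed the test. Col5a1, the highest fibrillar chain, was 3.42 to 4.57 FPKM in naive vehicle and 3.82 to 6.14 in cuprizone vehicle libraries.

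**Figure D3:**
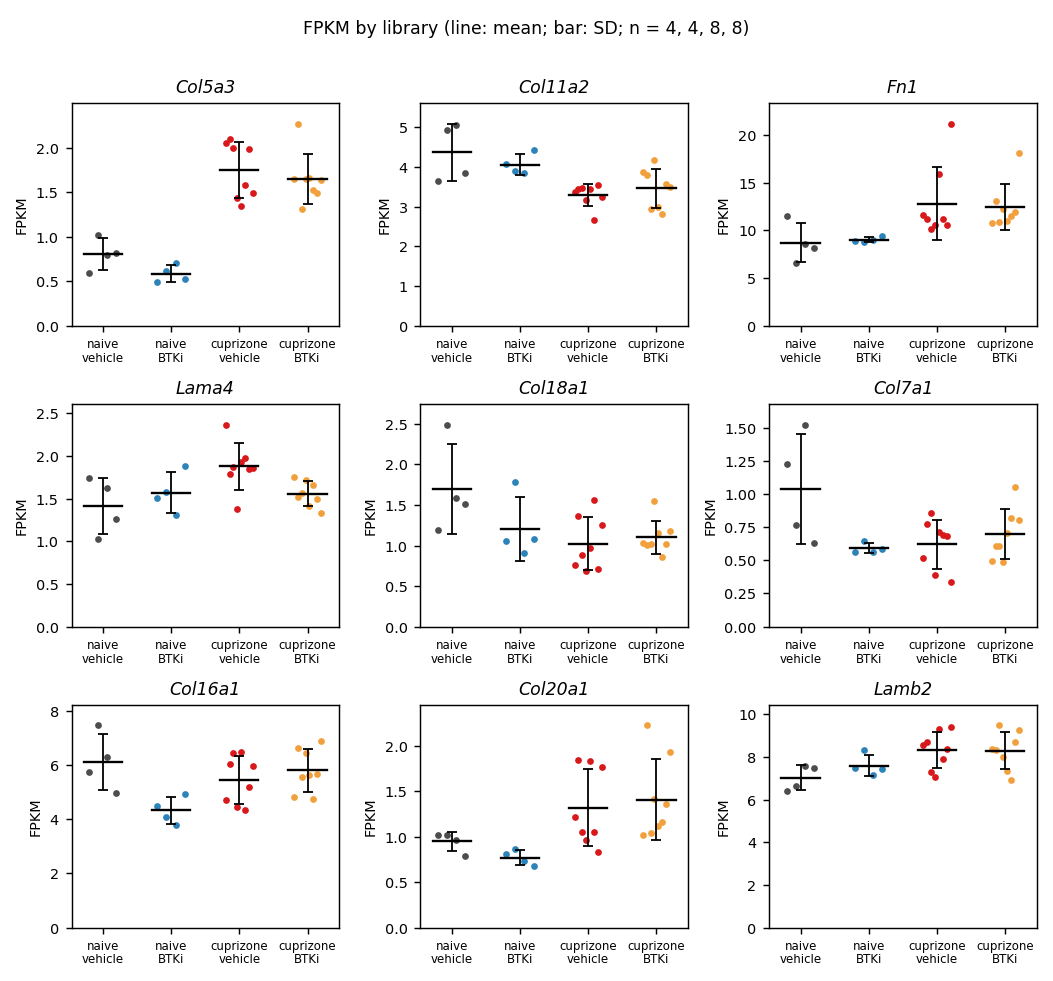
FPKM of 9 matrix genes in every library, with the mean as a line and the SD as a bar (n = 4, 4, 8 and 8). In the Col5a3 panel every cuprizone library lies above every naive library, while the panels of Fn1, Lama4, Col18a1, Col7a1 and Lamb2 show naive vehicle and cuprizone vehicle libraries that overlap.

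Fibronectin rose in cuprizone mice under vehicle, with a few very high libraries. Fn1 was 11.5, 6.61, 8.59 and 8.17 FPKM in naive vehicle and 8.93, 8.77, 8.96 and 9.39 in naive BTKi libraries. The lowest, median and highest values were 10.1, 11.2 and 21.2 in cuprizone vehicle and 10.8, 11.7 and 18.1 in cuprizone BTKi libraries. Under vehicle the groups overlapped through naive vehicle 1. Under BTKi all 8 cuprizone libraries lay above all 4 naive ones, as they did for 5.70% of all genes tested. The log2 change was 0.51 under vehicle (SE 0.16, limma adjusted p = 0.0285, exact permutation p = 0.0444). Under BTKi it was 0.43 (SE 0.16), which did not pass limma's adjustment (adjusted p = 0.113), although its exact permutation p was 0.00404 and it passed when only the compared groups were fitted (adjusted p = 0.0184). The vehicle result was lost without naive vehicle 2 (adjusted p = 0.145) and without naive vehicle 3, naive vehicle 4 or cuprizone vehicle 5. The 3 libraries highest in Fn1, cuprizone vehicle 8 (21.2), cuprizone BTKi 8 (18.1) and cuprizone vehicle 5 (15.9), were also the 3 with the highest sum of 9 microglial markers (425, 323 and 325 FPKM, against 161 to 251 in the other cuprizone libraries). The part of that in the Fn1 result was not tested.

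The basement membrane collagens had 5 of 8 chains tested, and the abundant ones did not pass the test. Col4a1 was 7.24, 7.31, 7.53 and 6.53 FPKM in naive vehicle and 8.24, 7.50, 6.72 and 7.38 in naive BTKi libraries, with medians of 7.47 in cuprizone vehicle and 8.10 in cuprizone BTKi libraries. Col4a2, its partner in the network of vessel basement membranes, was 8.39, 8.43, 9.09 and 7.73 in naive vehicle and 8.37, 8.14, 8.05 and 7.72 in naive BTKi libraries, with medians of 7.91 and 8.59 in the cuprizone groups. All groups overlapped. The 95% intervals of the cuprizone effect ran from -0.06 to 0.22 for Col4a1 and from -0.21 to 0.05 for Col4a2 under vehicle, on the log2 scale. The 2 genes lie head to head on chromosome 8 with 22 shared exonic bases on opposite strands.

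Col18a1, whose C-terminal fragment is endostatin, fell under vehicle. Its level was 1.19, 2.49, 1.59 and 1.51 FPKM in naive vehicle and 1.05, 1.79, 0.905 and 1.09 in naive BTKi libraries. The lowest, median and highest values were 0.680, 0.928 and 1.56 in cuprizone vehicle and 0.864, 1.03 and 1.55 in cuprizone BTKi libraries, so the groups overlapped. The log2 change was -0.52 under vehicle (SE 0.16, limma adjusted p = 0.0252) and -0.07 under BTKi (adjusted p = 0.863). The vehicle call was lost without naive vehicle 2 (limma adjusted p = 0.163). It was also lost without the 3 cuprizone vehicle libraries with little choroid plexus RNA, where the log2 change was -0.35 (limma adjusted p = 0.172). The part of choroid plexus or striatal RNA in the Col18a1 change was not tested. Col15a1, another basement membrane zone collagen, and Col4a5 did not pass the test, with log2 changes of -0.13 and 0.07 under vehicle.

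The short-chain collagen VIII showed the widest spread between libraries of a group. Col8a1 was 1.90, 2.65, 1.67 and 2.48 FPKM in naive vehicle and 1.60, 3.92, 0.959 and 1.76 in naive BTKi libraries. Its lowest, median and highest values were 0.391, 1.55 and 2.23 in cuprizone vehicle and 0.819, 1.46 and 2.03 in cuprizone BTKi libraries. Col8a2, its partner chain, was 1.86, 3.21, 2.22 and 2.93 in naive vehicle and 1.77, 3.23, 1.03 and 1.50 in naive BTKi libraries, and 0.461, 1.69 and 2.48 in cuprizone vehicle libraries at the lowest, median and highest. The groups overlapped in both genes. Neither passed the test under vehicle (Col8a2 log2 change -0.74, SE 0.27, adjusted p = 0.0705, and Col8a1 -0.62, SE 0.29, adjusted p = 0.162). Col8a2 did pass after quantile normalization (adjusted p = 0.0388) and without cuprizone vehicle 2 or 6. Without the 3 cuprizone vehicle libraries with little choroid plexus RNA its log2 change was -0.27 (adjusted p = 0.432).

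Several collagens were low in the libraries with little choroid plexus RNA and high in the one with the most, and the part of choroid plexus RNA in their values was not tested. In cuprizone vehicle libraries 1, 4 and 7 Col8a1 was 0.576, 0.391 and 0.574 FPKM, against 1.54 to 2.23 in the other 5. Col8a2 was 0.610, 0.461 and 0.571 there, against 1.61 to 2.48, and Col9a3, a chain of the cartilage collagen IX, 4.87, 3.42 and 4.15 against 7.14 to 11.0. Col18a1 and the fibrillar Col27a1 were also lower in these 3 libraries than in each of the other 5. That makes 5 of 42 tested genes below and none above, beside 5.44% of all tested genes below and 1.81% above. The highest choroid plexus sum of all libraries, 2548 FPKM in naive BTKi 2, came with the highest Col8a1 (3.92), Col8a2 (3.23) and Col9a3 (14.6) of all 24 libraries. Without the 3 libraries the log2 change under vehicle was -0.15 for Col8a1, -0.27 for Col8a2 and -0.02 for Col9a3, against -0.62, -0.74 and -0.42 with them. The SD of log2 values within groups was 0.513 for Col8a1, 0.487 for Col8a2 and 0.458 for Col9a3. Its median was 0.199 over the 42 matrix genes and 0.116 over all genes tested.

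**Figure D4:**
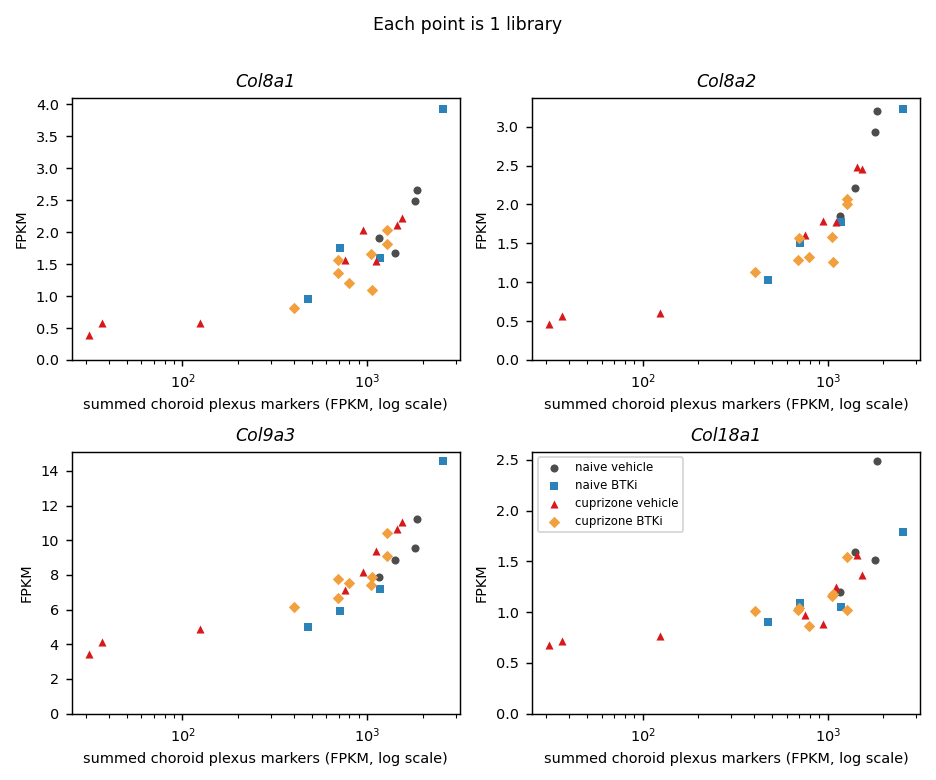
FPKM of Col8a1, Col8a2, Col9a3 and Col18a1 against the summed FPKM of 9 choroid plexus markers (log axis), with 1 point per library and the 4 groups by colour and shape. The 3 cuprizone vehicle libraries at the left, with sums of 31.3 to 124 FPKM, hold the lowest Col8a1, Col8a2 and Col9a3 values of all libraries.

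The fibril-associated collagens had 6 of 9 chains tested and gave calls, under BTKi, for Col16a1 and Col20a1. Col16a1, whose product lies on the surface of fibrils, was 5.77, 7.48, 6.30 and 4.98 FPKM in naive vehicle and 4.48, 4.08, 3.81 and 4.95 in naive BTKi libraries. The lowest, median and highest values were 4.36, 5.59 and 6.49 in cuprizone vehicle and 4.74, 5.68 and 6.91 in cuprizone BTKi libraries. The naive BTKi libraries were thus the low group, below every naive vehicle library, and they overlapped the cuprizone BTKi libraries. The log2 change with cuprizone was 0.38 under BTKi (SE 0.11, limma adjusted p = 0.0374) and -0.15 under vehicle (adjusted p = 0.411). The call was lost in 6 of 12 fits that left out 1 library (naive BTKi 1, 2 or 3, or cuprizone BTKi 2, 4 or 8), with an adjusted p of 0.167 without naive BTKi 3.

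Col20a1 was 1.02, 1.02, 0.965 and 0.792 FPKM in naive vehicle and 0.806, 0.860, 0.732 and 0.677 in naive BTKi libraries. In cuprizone vehicle libraries the lowest, median and highest values were 0.833, 1.14 and 1.84, and in cuprizone BTKi libraries 1.02, 1.26 and 2.23. All cuprizone BTKi libraries were above all naive BTKi libraries, as they were for 5.70% of all genes tested and 3 of the 42 matrix genes. The vehicle groups overlapped. The log2 change was 0.56 under BTKi (SE 0.16, limma adjusted p = 0.0266) and 0.30 under vehicle (adjusted p = 0.229). The call was lost without naive BTKi 1, 3 or 4 or cuprizone BTKi 8, with an adjusted p of up to 0.0892. Col20a1 shares 79 exonic bases, 1.54% of its exons, with another annotated gene on the same strand (mean 5.11 FPKM). Reads from that stretch could belong to that gene. Col9a3, Col19a1, Col12a1 and Col9a2 did not pass the test.

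Of the beaded filament and anchoring collagens, 6 of 9 were tested. Col6a1, a chain of the collagen VI microfibrils around vessels and in the meninges, was 12.9, 13.7, 13.9 and 10.9 FPKM in naive vehicle and 13.2, 10.8, 10.4 and 11.3 in naive BTKi libraries. Its median was 12.0 in cuprizone vehicle and 12.0 in cuprizone BTKi libraries, and all groups overlapped. Its log2 change was -0.09 under vehicle and 0.08 under BTKi. Col7a1, the anchoring fibril collagen of skin, fell under vehicle at a low level. It was 1.22, 0.769, 1.52 and 0.628 FPKM in naive vehicle and 0.563, 0.647, 0.565 and 0.589 in naive BTKi libraries. The lowest, median and highest values were 0.338, 0.685 and 0.859 in cuprizone vehicle and 0.490, 0.656 and 1.06 in cuprizone BTKi libraries. Naive vehicle 1 and 3 were the high libraries, and the groups overlapped. The log2 change was -0.43 under vehicle (SE 0.15, limma adjusted p = 0.0491, exact permutation p = 0.0505) and 0.12 under BTKi (adjusted p = 0.739). The vehicle call was lost in 8 of 12 fits that left out 1 library (naive vehicle 1 or 3, or cuprizone vehicle 1, 4, 5, 6, 7 or 8), with an adjusted p of 0.237 without naive vehicle 3, and without the 3 libraries poor in choroid plexus RNA (adjusted p = 0.158).

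The transmembrane collagens had 3 of 4 members tested and no call. Col25a1, a collagen of neurons, was 4.68, 11.2, 6.23 and 6.65 FPKM in naive vehicle and 4.93, 6.51, 6.02 and 6.14 in naive BTKi libraries. Its highest value was that of naive vehicle 2, the library rich in striatal RNA. The cuprizone libraries ran from 4.55 to 6.70 under vehicle and from 5.46 to 6.52 under BTKi, and the log2 changes were -0.18 and 0.03. Col23a1 and Col13a1 had log2 changes of 0.12 and 0.06 under vehicle.

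Among the laminins, 9 of 11 chains were tested, and Lama4 alone passed in any comparison. Lama4 encodes the alpha 4 chain of vessel laminin. It was 1.75, 1.02, 1.63 and 1.26 FPKM in naive vehicle and 1.51, 1.58, 1.31 and 1.88 in naive BTKi libraries. The lowest, median and highest values were 1.38, 1.87 and 2.37 in cuprizone vehicle and 1.33, 1.54 and 1.76 in cuprizone BTKi libraries, and the groups overlapped. The log2 change was 0.32 under vehicle (SE 0.10, limma adjusted p = 0.0331) and -0.01 under BTKi (adjusted p = 0.989). The vehicle call was lost without naive vehicle 2 (adjusted p = 0.199), naive vehicle 4 or cuprizone vehicle 1. It was also lost when the libraries were rescaled by median ratios or by quantiles.

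None of the other 8 laminin chains passed the test under vehicle or under BTKi (limma, with 3 up and 1 down at an unadjusted p under 0.05 under vehicle). Lamb2, the beta chain of mature vessel laminins, was 6.41, 6.63, 7.57 and 7.50 FPKM in naive vehicle and 7.49, 8.31, 7.16 and 7.44 in naive BTKi libraries, with 7.08, 8.47 and 9.39 at the lowest, median and highest in cuprizone vehicle libraries. Its log2 change was 0.23 (SE 0.08, limma adjusted p = 0.0505). It passed without the 3 cuprizone vehicle libraries with little choroid plexus RNA (0.26, adjusted p = 0.0451) as well as with pseudocount 0.1, with a minimum mean FPKM of 1, and without naive vehicle 3 or cuprizone vehicle 3 or 4. Lamc1, the gamma chain shared by most laminins, was 5.17, 5.73, 5.26 and 5.91 in naive vehicle and 5.75, 6.20 and 7.28 at the lowest, median and highest in cuprizone vehicle libraries (log2 change 0.18, adjusted p = 0.0579). The laminin chains with a positive log2 change were 7 of 9 under vehicle and 3 of 9 under BTKi, beside 9030 and 8830 of 15216 genes. Lama2, the alpha chain of laminin-211, was 3.02, 3.29, 3.57 and 3.48 in naive vehicle, 3.53, 3.29, 3.16 and 3.41 in naive BTKi and 2.33, 2.99 and 3.40 at the lowest, median and highest in cuprizone vehicle libraries. It had log2 changes of -0.17 and -0.14 (adjusted p = 0.144 and 0.344). Lamb1 was 3.20, 5.14, 2.95 and 3.19 in naive vehicle libraries, highest in naive vehicle 2, with log2 changes of -0.11 and -0.08.

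The effect of BTKi in cuprizone mice was tested over the same genes. None of the 42 matrix genes passed limma's adjusted threshold, where 0.177% of all genes did (27 genes, of which 6 were higher and 21 lower), and the smallest adjusted p among the matrix genes was 0.469. With an unadjusted p under 0.05 there were Lama4, lower under BTKi (log2 change -0.20, 95% interval -0.38 to -0.03), and Col4a2, higher (0.11, 0.01 to 0.21). The exact permutation p was 0.0112 for Lama4 and 0.0665 for Col4a2. The 95% interval lay within a 1.5-fold change of FPKM + 0.5, in either direction, for 39 of 42 genes. This bounds the effect for most of them on that scale only, which understates changes of low genes. For Col5a3 the log2 change was -0.06, and for Fn1 it was -0.01. This comparison shares the cuprizone vehicle libraries with the cuprizone comparison under vehicle, so the Lama4 values in the comparisons are not independent.

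In naive mice BTKi also gave no call among the 42 matrix genes, where 0.217% of all genes passed (33 genes), and the smallest adjusted p was 0.147. Limma's unadjusted p was under 0.05 for 4 genes. Col16a1 was lower in all 4 BTKi libraries than in all 4 vehicle libraries (log2 change -0.45, SE 0.13, limma adjusted p = 0.147). Lamc1 was higher in all 4, at 6.77, 6.74, 6.29 and 6.69 FPKM against 5.17, 5.73, 5.26 and 5.91 (log2 change 0.24, SE 0.07, limma adjusted p = 0.149). Separations of this kind were seen downward in 4.93% and upward in 2.43% of all genes tested. The exact permutation p was 0.0286 for both, the smallest that 4 against 4 libraries allow. Col7a1 (-0.45) and Col23a1 (0.31) had overlapping libraries. The naive BTKi libraries are the controls of the cuprizone comparison under BTKi, so the low Col16a1 here and its rise there rest on the same 4 libraries.

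The difference of the BTKi effect between cuprizone and naive mice, which equals the difference of the cuprizone effect between BTKi and vehicle, gave no call among the 42 matrix genes either, where 0.125% of all genes passed (19 genes). The smallest adjusted p was 0.277, for Col16a1, with a log2 difference of 0.53 (95% interval 0.20 to 0.87). With an unadjusted p under 0.05 there were 7 genes, among them Col16a1, Col7a1, Lamc1, Lama4, Col1a1 and Col23a1. The interval lay within 1.5-fold of FPKM + 0.5 for 23 of 42 genes, so differences of that size were not bounded for the others. Genes called under only 1 of the treatments, such as Lama4, Col18a1, Col7a1 and Col20a1, were therefore not shown to respond differently under the other.

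Of 17 tested receptors of these proteins, 5 rose and 2 fell under vehicle, and 6 rose and 1 fell under BTKi. Over all genes tested 10.2% rose and 4.82% fell under vehicle, and 6.11% and 1.77% under BTKi. The receptors' median log2 change was 0.06 under vehicle and 0.09 under BTKi, beside 0.03 and 0.02 over all genes tested. Itgb4, the integrin beta 4 chain that pairs with alpha 6 to bind laminin, was 3.96, 7.05, 5.37 and 4.80 FPKM in naive vehicle libraries and 1.67 ± 0.395 in cuprizone vehicle mice (SD, n = 8), with no overlap, a downward separation seen for 2.85% of all genes tested. Its log2 change was -1.41 under vehicle (SE 0.17, limma adjusted p = 1.54e-06) and -1.03 under BTKi (adjusted p = 0.000172). Its partner Itga6 rose (log2 change 0.44 and 0.32). Cd44, a hyaluronan receptor that also binds matrix proteins, rose from 0.658 ± 0.268 to 2.27 ± 0.874 FPKM under vehicle (log2 change 1.22, adjusted p = 6.51e-05) and by 1.20 on the log2 scale under BTKi. Itgb5, a partner of integrin alpha V, rose by 0.76 under each treatment, from 13.9 ± 1.12 to 24.6 ± 7.39 FPKM under vehicle. Sdc4, a syndecan that binds fibronectin alongside integrins, rose by 0.34 and 0.39. The collagen receptor kinases, picked out after their values were seen, went opposite ways under vehicle, with Ddr1 at -0.39 (adjusted p = 0.00659) and Ddr2 at 0.41 (adjusted p = 0.000442). The Ddr1 call was lost without naive vehicle 2 (adjusted p = 0.0602). Sums of mature oligodendrocyte markers were lower in the cuprizone libraries. Sums of 9 microglial markers were higher (105 to 126 FPKM in naive and 161 to 425 in cuprizone libraries). So were sums of 9 astrocyte markers (797 to 935 and 1067 to 1327), of which Aldoc was the largest part (mean 370 in naive vehicle libraries). Under vehicle 7 microglial markers rose and 2 did not pass, while 5 astrocyte markers rose, 1 fell and 3 did not pass. The part of these cell types in the receptor changes was not tested.

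**Figure D5:**
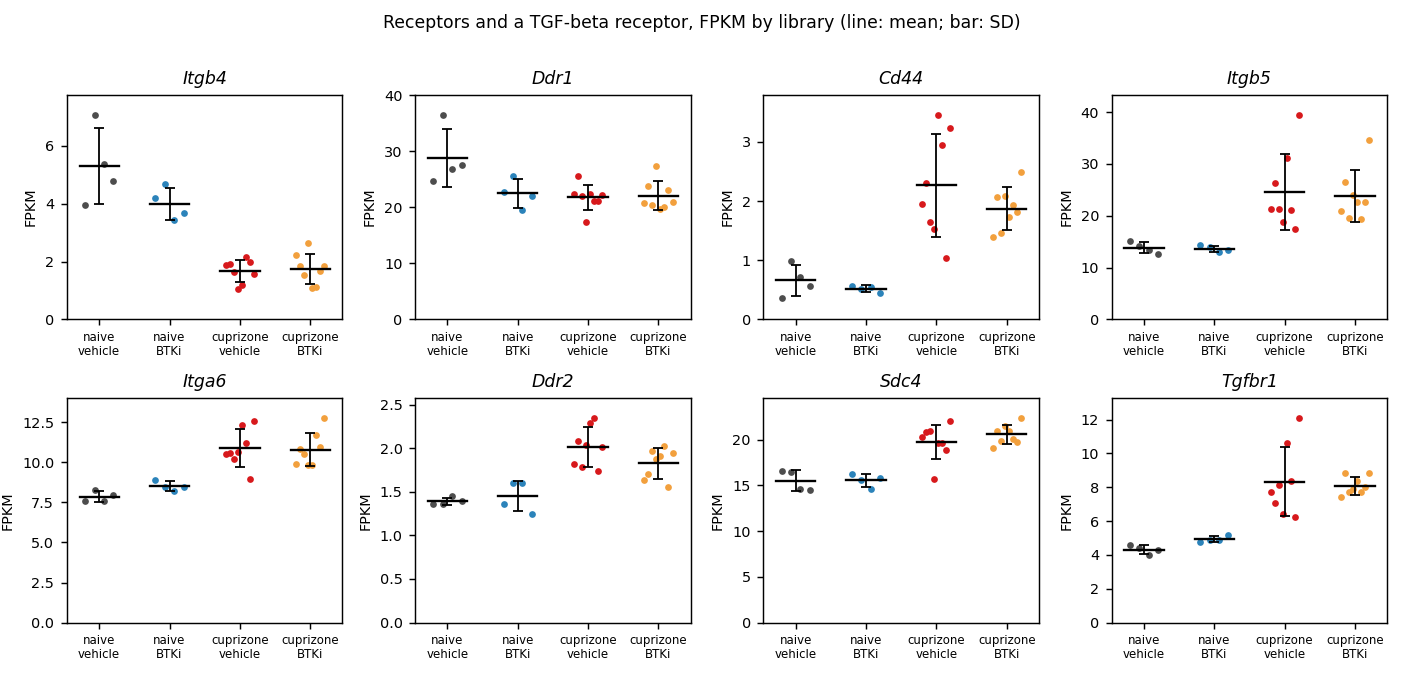
FPKM of 7 receptors of matrix proteins and of Tgfbr1 in every library, with the mean as a line and the SD as a bar (n = 4, 4, 8 and 8). All cuprizone libraries lie below the naive libraries for Itgb4 and above them for Cd44, Itgb5, Itga6 and Tgfbr1. Within vehicle and within BTKi libraries, 2.85% and 1.47% of all genes tested separated downward, and 5.92% and 5.70% upward.

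The 14 matrix genes below the filter were Col4a3, Col4a4 and Col4a6 among basement membrane chains, Col6a5, Col6a6 and Col28a1 among beaded filament chains, Col9a1, Col14a1 and Col22a1 among fibril-associated chains, and Col2a1, Col10a1, Col17a1, Lama1 and Lamb3. Their means over 24 libraries ran from 0.0262 FPKM (Col10a1) to 0.392 (Lama1), the nearest below the threshold. Col13a1 was the nearest above it, with 0.537. These genes were not tested. Col2a1, the cartilage fibril collagen, was 0.453, 0.753, 0.350 and 0.499 FPKM in naive vehicle libraries and 0.180 to 0.412 in cuprizone vehicle libraries, which overlapped. Col4a3, Col4a4 and Col4a6 were each lower in the 3 cuprizone vehicle libraries with little choroid plexus RNA than in the other 5. Their lowest values over 24 libraries corresponded to about 14.0, 16.8 and 33.6 fragments. The share of all genes below the filter with this pattern was not counted.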

How the data were processed

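Per the labels' protocols, extraction used a Qiagen RNeasy Micro kit and library preparation a TruSeq stranded mRNA kit. The deposited table holds the authors' FPKM values for 54446 versioned Ensembl gene IDs in 24 libraries. Aligner, counting tool, strand setting and genome build: not given in the sources used here. An FPKM value also drops when other genes take a larger share of the library. Symbols and exon positions came from GENCODE M21, which holds 53229 of the IDs with their version (54 of the 56 matrix genes), and promoters from RefSeq (GRCm38.p6). Total FPKM ran from 462521 to 496350. Depth was inferred from 44384 low values, of which 94% then lay within 0.1 of a whole fragment. The 20% given by chance holds for a depth set beforehand, and here the depth was fitted to the same values. The share is thus no independent check, and intervals and counts of fragments are approximate.

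Groups were taken from the labels, and all 24 libraries entered the tests. The 15216 genes whose mean reached 0.5 FPKM were fitted on log2(FPKM + 0.5), which understates changes of low genes. The fit used limma 3.58.1 (R 4.3.3) with a trend in eBayes, all 4 groups in 1 model and Benjamini-Hochberg adjustment at 0.05. The script was tested on simulated data. No count test was run on FPKM. Exact two-sided permutation tests covered single genes. Alternatives were other pseudocounts, filters, scalings and variance models, only the compared groups, a replicate block, and leaving out each library. Leaving out the 3 libraries poor in choroid plexus RNA was added after the data were seen. Genes with a call, the most abundant chain of each role and the main chains of each family are named with values, as are the called receptors with the largest changes. Col8a1, Col27a1 and other genes named outside these were singled out after their values were seen. The values of 1 matrix gene are not reported here, though counts and sums include it. The genes and lists were chosen with earlier results of these data known. Python 3.11.15, pandas 2.3.3, numpy 2.4.6 and matplotlib 3.10.9 were used.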

Additional observations from a re-analysis of the deposited data

Results flagged for a closer look

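Within groups, 13 of 168 gene and group combinations held a library far from the others, where chance gives about 1 in 20. Col5a3, Col11a2 and Fn1 each had such a library. Col5a3 was 2.27 FPKM in cuprizone BTKi 2, against 1.31 to 1.66 in the other cuprizone BTKi libraries, which widens the high group without touching its separation from naive libraries. Col11a2 was 2.66 in cuprizone vehicle 6, against 3.17 to 3.55 in the rest, and Fn1 was 18.1 in cuprizone BTKi 8, against 10.8 to 13.1.

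The library cuprizone BTKi 4 was high in Col18a1 (1.55 against 0.864 to 1.18) and in Col4a5 (1.50 against 0.816 to 1.13), and cuprizone BTKi 8 also in Col27a1 (3.33 against 1.64 to 2.22). Col3a1 was 1.46 in cuprizone BTKi 2, against 0.401 to 0.675. Low libraries were cuprizone BTKi 7 in Col23a1 (0.901 against 1.21 to 1.47), cuprizone vehicle 1 in Col25a1 (4.55 against 5.83 to 6.70) and naive vehicle 1 in Col1a1 (1.17 against 1.58 to 1.65). Among naive libraries, Lamb1 was 5.14 in naive vehicle 2 (2.95 to 3.20 in the others), Col19a1 2.51 in naive BTKi 4 (2.08 to 2.11) and Lamc1 6.29 in naive BTKi 3 (6.69 to 6.77).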

How the results depend on the processing

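Col5a3 was called higher in every alternative run, in all 12 fits that left out 1 library and under each treatment, with log2 changes from 0.60 to 1.03 under vehicle and 0.74 to 1.35 under BTKi. Under vehicle, the 3 genes called higher became 1 with no filter and 1 with only the compared groups in the fit, became 4 without the 3 libraries poor in choroid plexus RNA, where Lamb2 passed, and ranged from 1 (without naive vehicle 2) to 5 (without cuprizone vehicle 4) when 1 library was left out. The 3 called lower became 1 with only the compared groups and 1 without the 3 libraries poor in choroid plexus RNA, and ranged from 1 (without naive vehicle 2 or 3) to 4. Under BTKi the 3 called higher became 1 with no filter and ranged from 1 (without naive BTKi 3 or cuprizone BTKi 8) to 3. The cause was not tested. In all of these fits no matrix gene was called for BTKi against vehicle, in either state, or for the difference. Other scaling changed the balance of calls over all genes: 1555 higher and 733 lower under vehicle became 1229 and 978 with median ratios and 1205 and 1072 with quantiles, and 929 and 269 under BTKi became 772 and 406, and 724 and 395. The counts over all genes for BTKi moved too. In cuprizone mice 27 became 16 with no filter and 11 without the libraries poor in choroid plexus RNA. In naive mice 33 became 21 with no filter and 3 with only those groups. For the difference 19 became 9 with the replicate block and 7 without the libraries poor in choroid plexus RNA. Leaving out 1 library gave 14 to 34, 7 to 28 and 8 to 23. Correlations between the deviations of same-numbered libraries ran from -0.274 to 0.324. They gave no clear pairing by number but cannot exclude one, and the main fit used none. With the replicate block 2 matrix genes were called higher and 2 lower under vehicle, where Lama4 and Col11a2 (adjusted p = 0.0554) no longer passed, and 3 higher under BTKi. Depth limits the low genes most.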

Other observations

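Of 22 tested genes for collagen synthesis, folding and crosslinking, 2 rose and 2 fell under vehicle, where 10.2% of all genes tested rose and 4.82% fell, and none passed under BTKi (limma, with 3 genes up and 1 down at an unadjusted p under 0.05). The median log2 change was 0.11 under vehicle and 0.10 under BTKi, beside 0.03 and 0.02 over all genes tested. Adamts2, which removes the N-propeptide of fibrillar procollagens, fell from 2.83 ± 1.08 to 1.40 ± 0.176 FPKM (SD, n = 4 and 8, log2 change -0.76, limma adjusted p = 0.000237). All cuprizone vehicle libraries lay below all naive vehicle libraries, as they did for 2.85% of all genes tested. Plod1, a lysyl hydroxylase, had a log2 change of -0.34 (limma adjusted p = 0.00794), a call lost without naive vehicle 2 (0.0566). Plod3, another lysyl hydroxylase, had 0.30 (limma adjusted p = 0.0109), lost without naive vehicle 4 (0.0718). Colgalt1, which adds galactose to collagen, rose by 0.18 on the log2 scale (limma adjusted p = 0.00391).

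TGF-beta is a known inducer of collagen and fibronectin genes. Of 15 tested genes of its pathway, 3 rose and 1 fell under vehicle, where 10.2% of all genes tested rose and 4.82% fell. Under BTKi 3 rose and none fell, where 6.11% and 1.77% of all genes did. The median log2 change was 0.15 under vehicle and 0.03 under BTKi, beside 0.03 and 0.02 over all genes tested. The ligand gene Tgfb1 rose from 3.71 ± 0.555 to 7.16 ± 2.50 FPKM under vehicle (log2 change 0.81, limma adjusted p = 0.00217), and the receptor genes Tgfbr1 and Tgfbr2 rose by 0.85 and 0.44 on the log2 scale. Under BTKi the changes were 0.81, 0.66 and 0.45. Smad7, an inhibitor of the pathway, fell under vehicle (log2 change -0.26, limma adjusted p = 0.0267), a call lost without naive vehicle 2 or 3 and without the libraries poor in choroid plexus RNA. Microglial marker sums were higher in the same cuprizone libraries, and their part in these changes was not tested. Of 14 partner proteins of the matrix, none passed under vehicle (limma, with 2 at an unadjusted p under 0.05, both upward), where 15.0% of all genes did. Under BTKi 1 rose and none fell, where 6.11% and 1.77% of all genes did. The median log2 changes were 0.06 under vehicle and 0.01 under BTKi. Vcan, a large proteoglycan, rose under BTKi (log2 change 0.31, limma adjusted p = 0.0124), a call lost without naive BTKi 1 or 3.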
